A study of Mus musculus with 170 samples.

Results

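The let-7 linked oncofetal genes examined here were Lin28a, Lin28b, Igf2bp1, Igf2bp2, Igf2bp3, Hmga1, Hmga2, Trim71 and Arid3a. They are listed by name, with no threshold on their values, but were picked with earlier results of these data known, and each had 1 row among the 40549 rows of a table of transcript abundance in single cells of the mouse heart ventricle. Cells came from embryonic day 9.5 (E9.5) C57BL/6 embryos of 2 genotypes. Both carried homozygous floxed Dgcr8 and 1 copy of the mT/mG membrane reporter at Rosa26. Control embryos (Dgcr8 loxP/loxP; Rosa26 mT/mG/+) had no Cre and are labelled wild type. In the conditional knockout (cKO), labelled Mesp1Cre/+; Dgcr8-/-, Cre from 1 Mesp1 allele recombined both loci in early mesoderm and its progeny, so cells of other origins kept Dgcr8. The table held 74 control and 69 cKO cells, each picked by hand and sequenced in 1 of 2 batches, out of 170 labelled cells. The labels name no embryo, so each genotype counts as 1 sample, no test between genotypes was possible, and differences are given as descriptions. SDs are the scatter across cells.

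The let-7 microRNAs are a conserved family that accumulates as embryonic tissues differentiate, and the microprocessor, of which DGCR8 is the RNA-binding part, cuts their hairpins out of longer transcripts. Mature let-7 guides Argonaute proteins to complementary sites in 3′ UTRs, and the genes studied here are widely used as its targets. Such genes are called oncofetal because they are active in the embryo, quiet in most adult tissues and active again in some tumours. LIN28A and LIN28B in turn bind let-7 precursors and block their maturation, which closes a loop between the family and its targets.

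The 9 mature let-7 family names in the RefSeq table (build GRCm38.p6) were all 22 bases long and shared 1 seed. Of them, 4 are shown because together they show the seed kept while the first base, the base after the seed and the 3′ part vary. Capitals mark the seed, bases 2 to 8.
let-7a-5p: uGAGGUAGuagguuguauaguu
let-7d-5p: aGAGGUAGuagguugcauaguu
let-7e-5p: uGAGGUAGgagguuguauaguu
miR-98-5p: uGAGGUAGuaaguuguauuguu

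The complement of this seed, CTACCTC, was searched for on the transcript strand in the longest annotated 3′ UTR of each gene (GRCm38, the same assembly as mm10). An 8-base match is the same run followed by A (CTACCTCA), so it is counted among the 7-base matches too. Every one of the 9 genes held at least 1 match, 23 in all, against 8.96% of 20966 protein-coding genes with at least 1. Trim71 held 4 matches, all of 8 bases. Among 380 genes with a 3′ UTR within 10% of its length, itself included, 28.9% held at least 1 match. The share with 4 or more, 0.263%, was Trim71 alone. Lin28b, Igf2bp1 and Hmga2 also held 4 matches, of which 1, 3 and 1 were of 8 bases. Lin28a and Arid3a held 2, while Igf2bp2, Igf2bp3 and Hmga1 held 1 each, the one in Hmga1 being of 7 bases. Since these genes are known for let-7 sites, the matches describe the set and are no finding about it, and a match of letters is not a site shown to work.

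The 4 matches of Trim71 and, for each of the other genes, the 8-base match nearest the stop codon (for Hmga1 its 7-base match) are printed because the values below are read against them. Each run is 30 bases of the transcript strand, and capitals mark the match to the seed.
Trim71, chr9:114512472-114512501, minus strand: aaagtacaacattgcctaagtcCTACCTCA
Trim71, chr9:114512376-114512405, minus strand: cctgtgaagtgataatttctatCTACCTCA
Trim71, chr9:114509047-114509076, minus strand: gattttgtttagtatggattttCTACCTCA
Trim71, chr9:114509021-114509050, minus strand: ctcaattttggcaaaaagttgtCTACCTCA
Lin28a, chr4:134005189-134005218, minus strand: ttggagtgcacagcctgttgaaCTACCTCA
Lin28b, chr10:45381022-45381051, minus strand: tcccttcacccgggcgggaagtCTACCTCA
Igf2bp1, chr11:95961778-95961807, minus strand: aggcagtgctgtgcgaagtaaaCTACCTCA
Igf2bp2, chr16:22059473-22059502, minus strand: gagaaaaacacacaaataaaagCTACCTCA
Igf2bp3, chr6:49086787-49086816, minus strand: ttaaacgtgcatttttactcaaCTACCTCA
Hmga1, chr17:27563270-27563299, plus strand: catcttctcctctgttcacaaaCTACCTCt
Hmga2, chr10:120364224-120364253, minus strand: agggggcgccgacattcaatttCTACCTCA
Arid3a, chr10:79953888-79953917, plus strand: cacatgcaaggcaagtttctttCTACCTCA

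**Figure D1:**
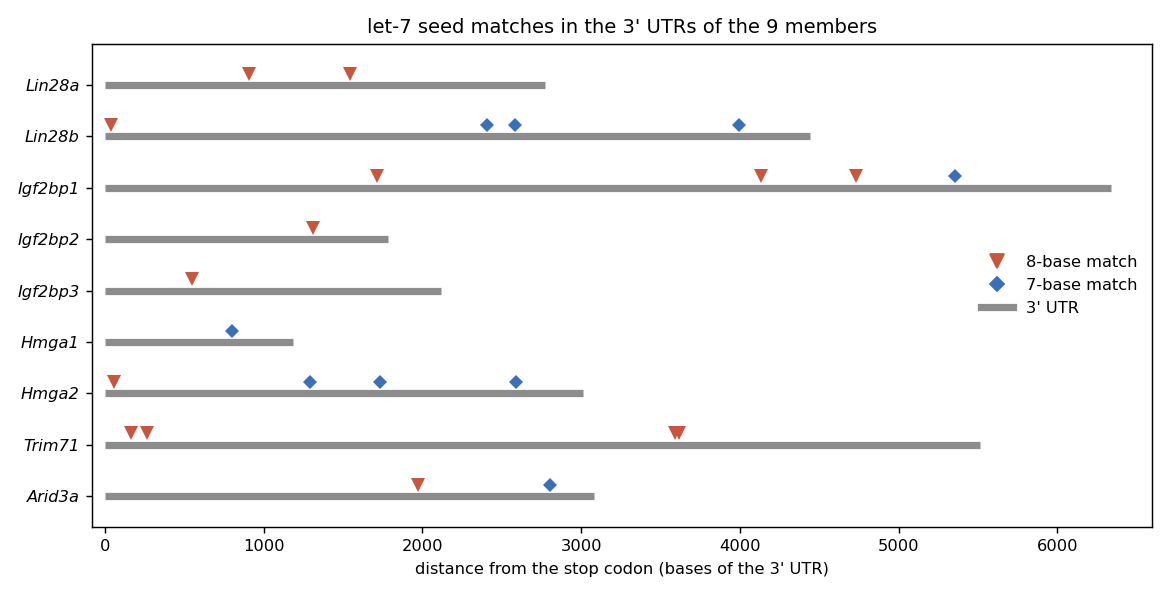
Positions of let-7 seed matches (triangles, 8 bases; diamonds, 7 bases) along the longest annotated 3′ UTR of each of the 9 genes (grey lines, to scale), in bases from the stop codon. The matches of Trim71 lie in 2 pairs, starting at bases 166 and 262 and at bases 3591 and 3617, and those of Lin28b and Hmga2 nearest the stop codon start at bases 36 and 58.

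Cells were sorted into classes by 55 marker genes. The cardiomyocyte-like (CM-like) class held 26 control cells (18 in batch 1, 8 in batch 2) and 67 cKO cells (33 and 34), with 15 of 15 cardiomyocyte markers raised against all other cells. Among the other 48 control cells were 22 endothelial-like cells (7 in batch 1, 15 in batch 2) and 13 epicardial-like cells (4 and 9). The rest were 5 erythroid-like cells and 8 cells of an unnamed cluster led by mitochondrial transcripts (median 52.3% of TPM over the cluster). Only 2 cKO cells lay outside the CM-like class, so genotypes were compared among CM-like cells alone. Levels are given as TPM, which are corrected for the length of a transcript and add up to about the same sum in each cell. Genes can thus be set side by side, while the depth behind a value is lost. A gene was called detected in a cell at a TPM of at least 1.

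Some other values moved with the genotype. The median number of genes above 0 in CM-like cells was 8477 in control and 9845 in cKO cells of batch 1, but 9704 and 7765 in batch 2. Mitochondrial transcripts made up a median of 6.27% of TPM in control and 3.00% in cKO CM-like cells. Xist, expressed from the inactive X chromosome, was detected in 64 of 67 cKO and 0 of 26 control CM-like cells (0 of 26 allows a share of up to 11.5%), and the Y-linked gene Ddx3y in 0 and 18, so genotype and sex cannot be told apart. Dgcr8 itself was above the detection limit in 13 of 26 control and 21 of 67 cKO CM-like cells, and its mean log2(TPM + 1) was 2.46 ± 2.94 and 1.66 ± 2.46. Values per gene do not resolve the deleted exon, so this is a weak check of the labels. The part of depth, mitochondrial share and sex in the results below was not tested.

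A gene was counted as higher or lower when its mean log2(TPM + 1) differed by at least 1 log2 unit over both batches and had the same sign in each batch. By this rule 0 of the 9 genes were higher and 0 were lower in cKO than in control CM-like cells. Over all 15059 genes passing the filter on low values, which all 9 passed, 5.78% were counted as higher and 7.06% as lower. These shares depend on how scarce the genes are. Of 6525 genes detected in the majority of CM-like cells of either genotype, 10.9% were higher and 13.8% lower. This narrower set held 7 of the 9 genes, and again none of them was counted. The median difference of the 9 genes was 0.25 (0.63 in batch 1 and −0.42 in batch 2), against 0.03 (0.14 and −0.20) over all genes. Only Lin28b, Igf2bp2 and Trim71 had the same sign in both batches.

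**Figure D2:**
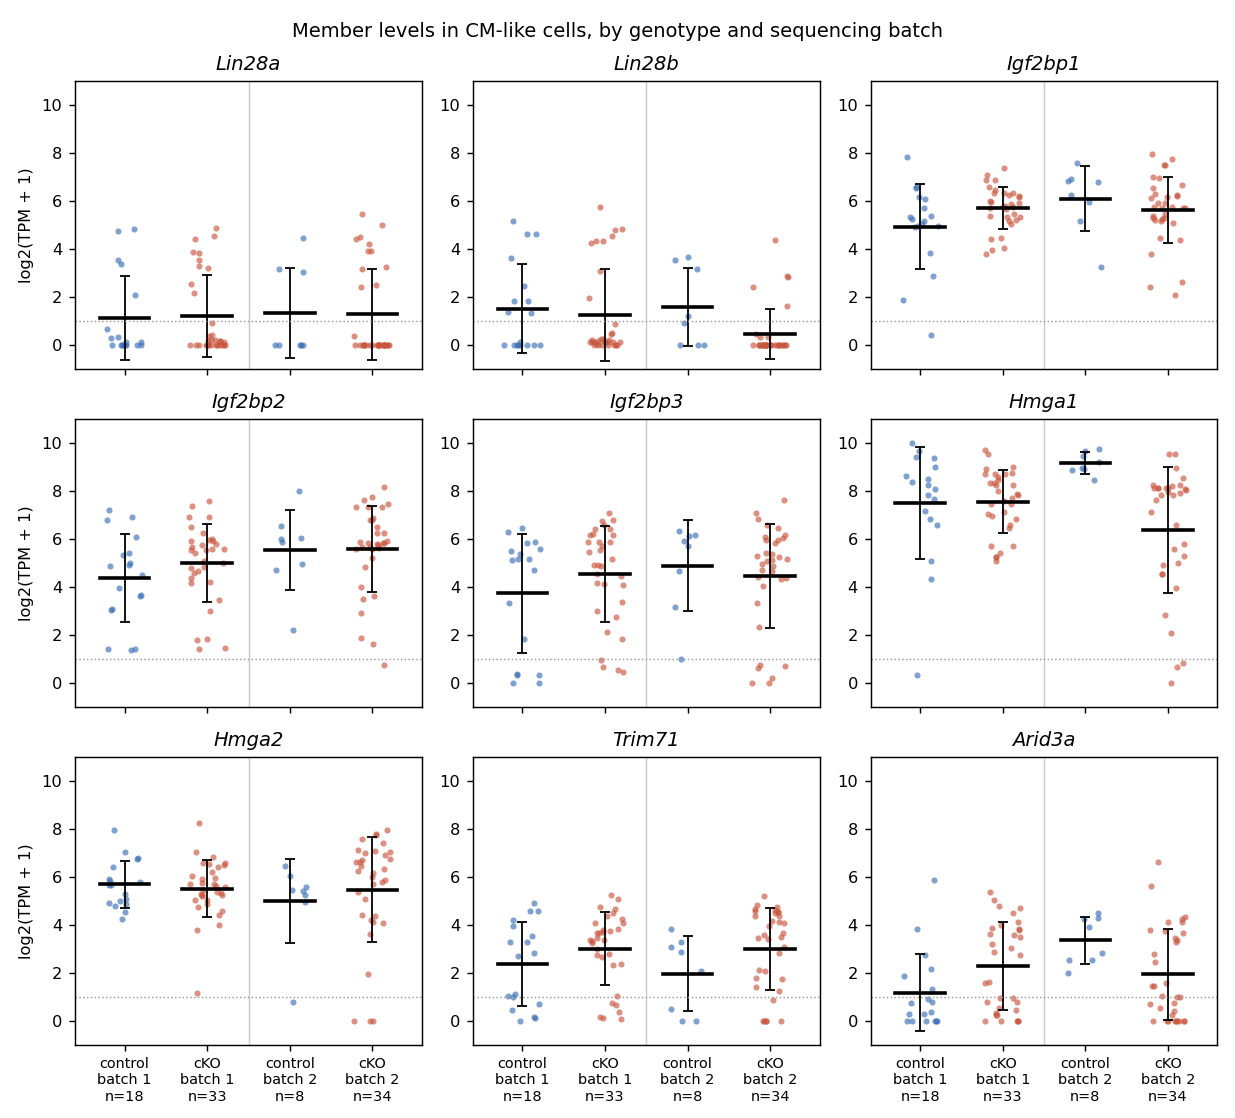
Level of each of the 9 genes, as log2(TPM + 1), in every CM-like cell (1 point a cell) by genotype and sequencing batch, with the mean (thick line) and SD across cells (bar); the dotted line is the detection limit of 1 TPM. Control and cKO cells overlap for every gene, with the clearest shift for Hmga1 in batch 2, where 30 of 34 cKO cells lie below the lowest of 8 control cells.

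The LIN28 proteins, which bind let-7 precursors, were encoded by the transcripts with the lowest mean levels of the set in CM-like cells of both genotypes. Lin28a (chr4:134003330-134018841) ranged from 0 to 27.7 TPM with a median of 0.0367 in control CM-like cells and from 0 to 42.8 with a median of 0 in cKO cells. Detection reached 30.8% of the control cells (8 of 26, 95% interval 14.3 to 51.8) and 31.3% of the cKO cells (21 of 67, 95% interval 20.6 to 43.8). Most cells of either genotype thus lacked a detected Lin28a transcript, and the values of those that had one overlapped. The mean log2(TPM + 1) was 1.18 ± 1.76 in the control group and 1.22 ± 1.8 in the cKO group, a difference of 0.05 (0.07 in batch 1, −0.06 in batch 2).

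Lin28b (chr10:45376620-45486395) ranged from 0 to 35.1 TPM with a median of 1.1 in control cells and from 0 to 51.9 with a median of 0.0339 in cKO cells. Detection reached 50% of the control cells (13 of 26, 95% interval 29.9 to 70.1) and 20.9% of the cKO cells (14 of 67, 95% interval 11.9 to 32.6). The lower cKO share was present in both batches, with 9 of 18 against 9 of 33 in batch 1 and 4 of 8 against 5 of 34 in batch 2. The ranges overlapped, and the mean log2(TPM + 1) of 0.85 ± 1.59 in cKO and 1.51 ± 1.76 in control cells differed by −0.67 (−0.23 in batch 1, −1.11 in batch 2), less than 1 SD. Cells with any Lin28b value above 0 made up 34 of 67 in cKO and 15 of 26 in control, so the pooled gap in share was narrower at that limit. The order turned in batch 1, with 26 of 33 cKO and 10 of 18 control cells, and held in batch 2, with 8 of 34 and 5 of 8. With a pseudocount of 0.1 in place of 1 the difference became −1.31 and Lin28b was counted as lower.

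Lin28a and Lin28b were detected together in 5 of 26 control and 5 of 67 cKO CM-like cells. Control cells with Lin28b alone numbered 8 and those with Lin28a alone 3, while 10 had neither. In cKO cells Lin28a alone was seen in 16, Lin28b alone in 9 and neither in 37. At these low levels a transcript can be missed in a cell that holds it, and depth per cell was unknown.

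The IGF2BP proteins bind messenger RNAs through KH domains and affect their stability, transport and translation. All 3 were detected in the same cell in 20 of 26 control and 56 of 67 cKO CM-like cells. Igf2bp1 (chr11:95957163-96005940) ranged from 0.332 to 227 TPM with a median of 39.5 in control cells and from 3.18 to 246 with a median of 53.2 in cKO cells. Detection was near complete, in 25 of 26 and 67 of 67 cells. The cKO cells lay within a narrower range at the low end, and 2 control cells fell below the lowest cKO cell. The mean log2(TPM + 1) was 5.29 ± 1.71 in control and 5.67 ± 1.16 in cKO cells, a difference of 0.38 that was 0.79 in batch 1 and −0.47 in batch 2.

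Igf2bp2 (chr16:22059009-22163299) ranged from 1.59 to 253 TPM with a median of 29.7 in control cells and from 0.651 to 283 with a median of 49.3 in cKO cells. All but 1 cell, a cKO cell, had it at a TPM of at least 1 (26 of 26 and 66 of 67). The ranges overlapped almost fully, and the mean log2(TPM + 1) of 4.72 ± 1.84 and 5.29 ± 1.73 differed by 0.56 (0.63 in batch 1, 0.03 in batch 2). Igf2bp3 (chr6:49085223-49214957) ranged from 0 to 85.9 TPM with a median of 34.6 in control cells and from 0 to 196 with a median of 32.3 in cKO cells, 8 of which exceeded the highest control cell. Detection reached 76.9% of the control cells (20 of 26, 95% interval 56.4 to 91.0) and 85.1% of the cKO cells (57 of 67, 95% interval 74.3 to 92.6). Its mean log2(TPM + 1) was 4.08 ± 2.35 in control and 4.49 ± 2.07 in cKO cells, and the difference of 0.41 changed from 0.80 in batch 1 to −0.42 in batch 2. The IGF2BP gene with the highest level differed from cell to cell: it was Igf2bp1 in 28, Igf2bp2 in 23 and Igf2bp3 in 16 of the 67 cKO cells, and in 11, 9 and 6 of the 26 control cells.

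The HMGA proteins bind the minor groove of AT-rich DNA through AT hooks and shape chromatin. Hmga1 (chr17:27556497-27563674) was the most abundant transcript of the set. In batch 1 it ranged from 0.248 to 1030 TPM with a median of 286 in 18 control CM-like cells and from 33.1 to 829 with a median of 226 in 33 cKO cells. In batch 2 it ranged from 349 to 856 TPM with a median of 547 in 8 control cells and from 0 to 749 with a median of 225 in 34 cKO cells. The genotypes overlapped in batch 1, whereas in batch 2, as noted in the plot of single cells, 30 of 34 cKO cells lay below every control cell. The mean log2(TPM + 1) was 8.01 ± 2.10 in control and 6.96 ± 2.15 in cKO cells, a difference of −1.05 that was 0.06 in batch 1 and −2.79 in batch 2, so Hmga1 was not counted as lower. This rests on the small positive difference of means in batch 1, where the cKO median was the lower. There, 3 of 18 control cells lay below the lowest cKO cell, and the lowest control cell was at 0.248 TPM. How far they set the sign was not tested.

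The 5 cKO cells with Hmga1 below 10 TPM were all in batch 2 and had between 4468 and 8301 detected genes, within the range of that batch. Hmga1 passed the rule as lower when mitochondrial transcripts were left out of the scaling, when differences were centred on the median of all genes, when cells were clustered on the most variable genes, and when all cells of each genotype were compared.

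Hmga2 (chr10:120361275-120476469) ranged from 0.712 to 250 TPM with a median of 45.2 in control cells and from 0 to 301 with a median of 52.9 in cKO cells. The cells at a TPM of at least 1 numbered 25 of 26 and 64 of 67. The genotypes overlapped over almost the whole range, and the mean log2(TPM + 1), 5.48 ± 1.28 among control and 5.49 ± 1.76 among cKO cells, differed by 0.01 (−0.18 in batch 1, 0.48 in batch 2). In batch 2, 14 of 34 cKO cells exceeded the highest of 8 control cells and 3 lay below the lowest. Hmga1 exceeded Hmga2 in 24 of 26 control and 51 of 67 cKO cells, by a median of 2.77 and 1.88 log2 units.

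Trim71 encodes a TRIM-NHL protein, the mammalian relative of worm LIN-41, that binds and represses messenger RNAs. Trim71 (chr9:114507133-114564369) ranged from 0 to 29.1 TPM with a median of 5.81 in control CM-like cells and from 0 to 37.3 with a median of 9.80 in cKO cells. Detection reached 65.4% of the control cells (17 of 26, 95% interval 44.3 to 82.8) and 82.1% of the cKO cells (55 of 67, 95% interval 70.8 to 90.4). The shares were 12 of 18 against 27 of 33 in batch 1 and 5 of 8 against 28 of 34 in batch 2, and the intervals of the 2 genotypes overlapped. Most cKO cells lay inside the control range, with 3 above the highest control cell. In batch 2 alone, 15 of 34 cKO cells exceeded the highest of 8 control cells, and in batch 1 alone 2 of 33 exceeded the highest of 18.

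The mean log2(TPM + 1) of Trim71 was 2.23 ± 1.68 in control and 3.00 ± 1.61 in cKO cells, a difference of 0.77 (0.65 in batch 1, 1.05 in batch 2). It was the largest positive difference of the 9 genes, below 1 SD of either genotype and above the difference of 89.8% of all genes. Trim71 had a positive difference under all 15 other settings, from 0.31 with a pseudocount of 10 to 1.70 with all cells of each genotype. Settings that changed only the filter on low values, or that gave the same CM-like cells, could not change this difference. Trim71 was counted as higher with a pseudocount of 0.1 (1.11), in batch 2 alone (1.05), with 4 marker clusters (1.16) and in the comparison of all cells. The settings with 4 marker clusters (34 control and 69 cKO cells) and with all cells (74 and 69) also changed the mix of cell classes. Control cells outside the CM-like class, some or all of which these settings brought in, had a Trim71 mean of 0.75. The part of cell class in these values was not tested.

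ARID3A is a DNA-binding protein with an AT-rich interaction domain. Arid3a (chr10:79927043-79955018) ranged from 0 to 57.9 TPM with a median of 0.487 in 18 control and from 0 to 40.8 with a median of 5.59 in 33 cKO CM-like cells of batch 1. In batch 2 it ranged from 2.96 to 21.7 with a median of 10.1 in 8 control and from 0 to 96.0 with a median of 1.37 in 34 cKO cells. The genotypes thus stood in opposite order in the 2 batches, with 20 of 34 cKO cells of batch 2 below the lowest control cell. Detection was 6 of 18 against 19 of 33 cells in batch 1 and 8 of 8 against 18 of 34 in batch 2. The difference of mean log2(TPM + 1) was 1.09 in batch 1 and −1.42 in batch 2, and pooled it was 0.25, from 1.84 ± 1.75 in control and 2.10 ± 1.87 in cKO cells. Of the 9 genes Arid3a had the closest relation to the number of detected genes among cKO CM-like cells, with Pearson's r of 0.52 over 33 cells of batch 1 and 0.38 over 34 cells of batch 2. Across control CM-like cells, with both batches pooled, r was only 0.07. The number of detected genes stood in the same order as Arid3a in both batches, and its part in the result was not tested.

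**Figure D3:**
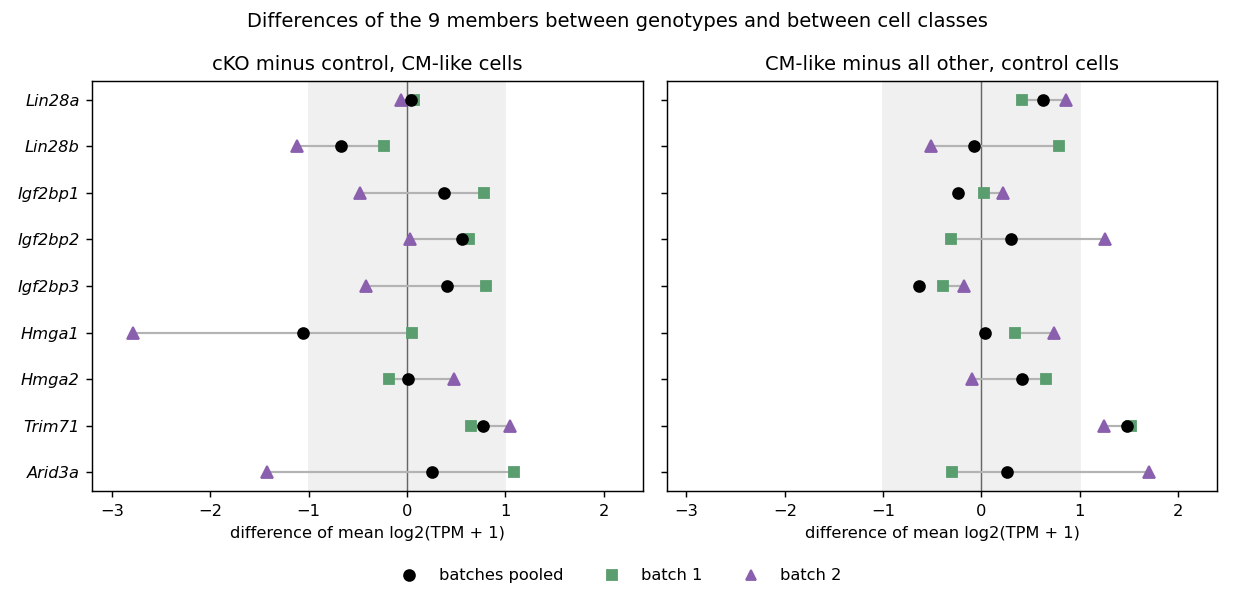
Difference of mean log2(TPM + 1) for each of the 9 genes, between genotypes among CM-like cells (left) and between CM-like and all other control cells (right), for both batches pooled (circles), batch 1 (squares) and batch 2 (triangles); the grey band spans −1 to 1. No gene leaves the band with the same sign in both batches on the left, and only Trim71 does on the right, at 1.48.

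The second comparison asked how the 9 genes differ between CM-like and other cells of control ventricles. By the same rule 1 of 9 genes, Trim71, was higher in 26 CM-like than in 48 other control cells and 0 were lower. The shares were 9.83% higher and 6.81% lower of 14517 genes. Of 6502 genes detected in the majority of cells of either set, 18.4% were higher and 10% lower. The median difference of the 9 genes was 0.26, against −0.03 over all genes. Trim71 ranged from 0 to 14.5 TPM with a median of 0.101 in the other cells, and was detected in 11 of 48 (22.9%, 95% CI 12 to 37.3), against the 17 of 26 CM-like cells. The ranges overlapped, with the CM-like median of 5.81 TPM inside the range of the other cells. The mean log2(TPM + 1) was 2.23 ± 1.68 and 0.75 ± 1.17, a difference of 1.48 (1.52 in batch 1, 1.24 in batch 2).

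Trim71 was detected in 6 of 22 endothelial-like, 2 of 13 epicardial-like, 2 of 5 erythroid-like and 1 of 8 unnamed cells. The CM-like mean exceeded the endothelial-like mean by 1.32 (0.97 in batch 1, 1.26 in batch 2) and the epicardial-like mean by 1.65 (2.07 and 1.24). The difference from all other control cells stayed positive in all 15 other settings, but it was 0.48 with a pseudocount of 10 and 0.99 with 4 marker clusters, below the rule's limit. Again, settings that changed only the filter on low values or gave the same cells could not change it. In order of the mean, the classes after CM-like cells were erythroid-like (1.04), endothelial-like (0.91), epicardial-like (0.58) and unnamed (0.43), and no neighbours in this order below the CM-like class differed by more than their SD.

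**Figure D4:**
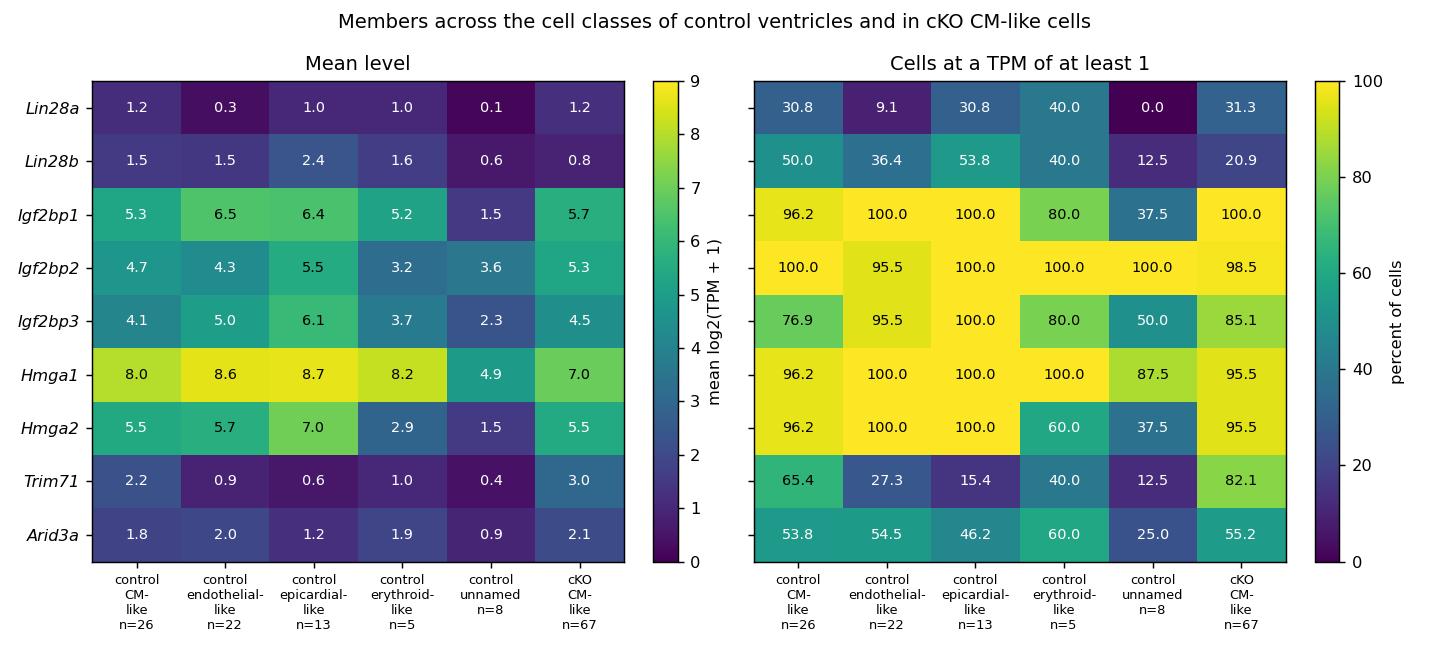
Mean log2(TPM + 1) (left) and percent of cells at a TPM of at least 1 (right) of the 9 genes in each class of control cells and in cKO CM-like cells, with the number of cells under each column. Trim71 is highest in the 2 CM-like columns, Hmga2 and Igf2bp3 in the epicardial-like column, and each gene except Igf2bp2 is lowest in the unnamed cluster.

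Against epicardial-like cells alone, Igf2bp1, Igf2bp3 and Hmga2 were lower in control CM-like cells and Trim71 was higher, 3 and 1 of the 9 genes, where 18% of 11848 genes were lower and 8.34% higher. Hmga2 ranged from 52.4 to 289 TPM with a median of 124 in the 13 epicardial-like cells, all of them above the CM-like median of 45.2. Its mean log2(TPM + 1) was 7.04 ± 0.67 there, and the CM-like mean was lower in both batches (−1.78 and −1.85, pooled −1.56). Only 4 of the 13 epicardial-like cells were in batch 1, so the batch 1 values here rest on few cells. Igf2bp3 ranged from 23.9 to 135 TPM with a median of 63.3 in epicardial-like cells and was detected in every one of them. Its mean of 6.10 ± 0.67 exceeded that of CM-like cells, which differed by −2.02 (−2.57 and −1.14).

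Igf2bp1 ranged from 37.9 to 179 TPM in epicardial-like and from 42.9 to 174 TPM in endothelial-like cells, a narrow band at the upper part of the CM-like range of 0.332 to 227. The CM-like mean differed from these by −1.14 (−1.73 and −0.23) and −1.25 (−1.73 and −0.39). Against endothelial-like cells, Igf2bp1 was the 1 gene of 9 counted as lower and Trim71 the 1 counted as higher, where 19.5% of 13085 genes were lower and 8.63% higher. Hmga1 was abundant in every named class, with a mean of 8.64 ± 0.67 in endothelial-like, 8.66 ± 0.73 in epicardial-like and 8.22 ± 2.07 in erythroid-like cells beside 8.01 ± 2.10 in CM-like cells, values that do not differ beyond their SD.

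The LIN28 genes, Igf2bp2 and Arid3a were present in every named class. Lin28a was detected in 2 of 22 endothelial-like and 4 of 13 epicardial-like cells, and Lin28b in 8 of 22 and 7 of 13. Lin28b was detected in 13 of 26 CM-like and 18 of 48 other control cells, and its difference of −0.08 was 0.79 in batch 1 and −0.51 in batch 2. Igf2bp2 was detected in every class and in 47 of 48 other control cells, with a difference of 0.30 (−0.31 and 1.26). Arid3a was detected in 23 of 48 other control cells, and its difference of 0.26 again changed sign between batches (−0.29 and 1.70).

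In the 8 control cells of the unnamed cluster the median mitochondrial share was 52.3%, and the means of Igf2bp1 (1.5), Hmga2 (1.54) and Hmga1 (4.90) were far below those of the named classes. When these cells were left out of the other control cells, a setting chosen after the data were seen, Igf2bp1 and Igf2bp3 became lower in CM-like cells and the median difference of the 9 genes changed from 0.26 to −0.27. Over all genes 13.6% were then lower and 6.28% higher, and the median changed from −0.03 to −0.21. When the marker tree was divided into 4 clusters these cells joined the CM-like class, and Igf2bp1, Igf2bp3, Hmga1 and Hmga2 were then counted as lower there, where 24.8% of all genes were lower and the median of all genes was −0.42. Trim71 kept its sign in both settings.

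In cKO CM-like cells no pair of the 9 genes varied closely together in both batches. Among their 36 pairs, Pearson's r of log2(TPM + 1) across cKO CM-like cells lay between −0.49 and 0.43 in batch 1 (33 cells) and between −0.24 and 0.59 in batch 2 (34 cells), and 0 pairs exceeded 0.3 in both batches. Hmga2 and Trim71, the pair with the highest r in batch 2 (0.59), had an r of 0.08 in batch 1. Across the 26 control CM-like cells, with both batches pooled, r was 0.72 for Igf2bp1 with Hmga1, 0.72 for Igf2bp3 with Hmga1 and 0.60 for Igf2bp1 with Igf2bp3, and Igf2bp2 had an r of 0.42 to 0.44 with each of these genes. In the same control cells the number of detected genes had an r of 0.46 to 0.58 with these 4 genes, and its part in the result was not tested. A single control cell had the lowest log2(TPM + 1) of Hmga1 (0.32) and of Igf2bp1 (0.41), and a value of 0 for Igf2bp3. The part of that cell in these correlations was not tested. All of these cells share libraries of unknown depth, so weak correlations are a description only.

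The genes whose levels followed a member most closely in both batches were sought among 5752 genes detected in 50% or more of the cKO CM-like cells. For Trim71 they were Cand1 (r of 0.63 and 0.54 in the 2 batches) and Rab6a (0.56 and 0.54). For Igf2bp1 they were Nol12 (0.62 and 0.53) and Tsfm (0.55 and 0.52), for Igf2bp2 A830010M20Rik and Clta, and for Igf2bp3 Dcakd and Fubp1. For Hmga1 they were Npm1 (0.58 and 0.53) and Got2 (0.51 and 0.56), for Hmga2 Rbfox2 and Larp4, and for Arid3a Usp11. Lin28a and Lin28b were detected in too few cells for this search.

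Genes around the same pathway were counted by the same rule, in lists chosen with earlier results of these data known. Over all genes 5.78% were higher and 7.06% lower. Both shares were larger, 10.9% and 13.8%, among the 6525 more widely detected genes, and the lists were not matched for level. Among the genes of LIN28 action and let-7 maturation, 0 of 11 measured genes were higher and 0 lower in cKO CM-like cells, with a median difference of 0.16. Khsrp, whose product promotes let-7 processing, differed by 0.95 (1.09 in batch 1, 0.84 in batch 2). Dis3l2, the nuclease that degrades uridylated let-7 precursors, differed by −0.90 (−0.70 and −1.21), and Zcchc11, the terminal uridylyltransferase recruited by LIN28A, by 0.54 (0.16 and 1.13). Syncrip (−0.02), Msi1 (−0.03) and Trim25 (0.51) completed the ends of this list.

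Among 37 measured genes of a longer list linked to let-7, 6 were higher and 5 lower in cKO CM-like cells, where 5.78% and 7.06% of all genes were, and the median difference was −0.04. The largest differences were Prtg (2.13; 2.67 in batch 1 and 1.66 in batch 2), Nr6a1 (2.03; 2.03 and 1.18) and E2f5 (1.71; 2.16 and 1.23). The lowest were Nme4 (−2.95; −2.10 and −3.87), Ccnd2 (−2.44; −1.83 and −2.91) and Mycn (−1.61; −0.94 and −2.39). Ccnd2 encodes a G1 cyclin and Mycn a growth-promoting transcription factor.

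Over all genes, the number of let-7 seed matches in the 3′ UTR went with little difference between genotypes. The median difference was 0.02 over 10578 genes with no match, 0.05 over 1125 genes with 1 match and 0.04 over 164 genes with 2 or more. For the 424 genes with a match of 8 bases it was 0.07. Trim71, with 4 matches, lay above these medians at 0.77, and Lin28b, also with 4, below them at −0.67, while Hmga2 and Igf2bp1, with 4 each, stood at 0.01 and 0.38. Genes with matches had longer 3′ UTRs (a median of 1142 bases with none and 2296 with 1). They also had lower levels, with a median log2(TPM + 1) of 1.85 with none, 1.46 with 1 and 1.13 with 2 or more matches. The pseudocount of 1 understates differences of scarce genes. Among genes with 3′ UTRs of 1434 to 4016 bases the order turned, with a median difference of 0.064 over 3663 genes without a match and 0.039 over 645 genes with 1 or more.

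Among 8 transcripts known to be bound by IGF2BP proteins the median was 0.90, and over all genes 5.78% were higher and 7.06% lower. Of the 8, 3 were higher in cKO CM-like cells and 0 lower. They were Actb (2.86; 3.11 and 2.29), which encodes beta-actin, Cd44 (1.67; 2.55 and 0.14), a cell-surface receptor, and Btrc (1.32; 1.72 and 0.35), part of a ubiquitin ligase. Myc (−0.52) and Mapk4 (−0.02) were at the other end. Among 9 high mobility group relatives of Hmga1 and Hmga2 the median was −0.51. Against the same shares of all genes, 0 were higher and 3 lower. These were Hmgb3 (−2.54; −2.11 and −3.22), Hmgn2 (−1.84; −1.46 and −2.23) and Hmgn3 (−1.32; −0.96 and −1.45), and unlike Hmga1 each was lower in both batches. Hmgn1 (0.16) and Hmgb2 (−0.13) were at the other end.

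Of 9 microprocessor and Argonaute genes, 0 were higher and 1 was lower, Tarbp2 (−1.89; −0.66 and −3.71), whose product is a partner of Dicer. Over all genes 5.78% were higher and 7.06% lower, and the list median was 0.11. Dgcr8 differed by −0.80 (−0.28 and −1.06), Drosha by −0.08, Dicer1 by 0.28, Ago3 by 0.47 and Ago4 by 0.22. Of 10 pluripotency and early embryonic regulators 4 passed the filter on low values and 0 were counted in either direction. They were Sall4 (−0.23), Nanog (−0.06), Dnmt3b (0.35) and Tdgf1 (0.38), and the other 6 were too scarce to compare.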

How the data were processed

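Single cells were made into Smart-seq2 libraries, which are primed on poly(A) tails and fragmented with Tn5, so mature microRNAs were not measured. The authors deposited TPM per gene and cell, obtained with Salmon against mm10 (both per the submitters' processing notes). The Salmon version and the annotation release are not given in the sources used here. According to the study's methods, cells with low mapping rates or with reporter transcripts that contradicted their genotype had been left out. TPM summed to 996133 to 999999 per cell, so depth is unknown, and an exact 0 can be a missed transcript.

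The 143 columns were matched to 143 of 170 labelled cells by title, and the other 27 cells were not analysed here. No column repeated another. All 143 cells were kept, and doublets were not called because cells were picked singly. Cells were clustered by Ward linkage on z-scored log2(TPM + 1) of 55 markers into 5 clusters, each named by the class whose markers exceeded the remaining cells by 1 log2 unit or more. The classes were rebuilt here and can differ from the study's own. Differences are of mean log2(TPM + 1) for genes above 0 in more than 10 of the cells compared. The pseudocount of 1 understates differences of scarce genes. No test was run, since each genotype is 1 sample and cells are not replicates, and the batches are not known to be separate embryos. Shares have Clopper-Pearson 95% intervals and zero limits of 3 cells, which cover counting error only. The steps were tested on simulated data.

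The longest 3′ UTR per gene came from GENCODE basic transcripts (GRCm38) and mature microRNAs from RefSeq. The members and lists were chosen with earlier results of these data known. Genes named are the members, the 3 highest and 3 lowest of each list, the most alike genes by the lower of both batches' r, and Dgcr8, Xist and Ddx3y. Some genes that this rule names are not reported here. Mirlet7a-1 was named after its values were seen. Scripts ran in Python 3.11.15 with NumPy 2.4.6, pandas 2.3.3 and SciPy 1.17.1.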

Additional observations from a re-analysis of the deposited data

Results flagged for a closer look

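The row of Mirlet7a-1, the gene of a let-7a hairpin, lay outside the comparisons and was above its level in control cells. Values of 1 TPM or more were found for it in 17 of 67 cKO CM-like cells (25.4%, 95% CI 15.5 to 37.5), with 8 of 33 in batch 1 and 9 of 34 in batch 2. Among control CM-like cells it was at that level in 1 of 26 (3.85%) and among the other control cells in 1 of 48. The highest cKO cell reached 915 TPM and the highest control CM-like cell 14.3 TPM. These libraries do not capture mature let-7, and the row is of a short annotated hairpin, for which TPM is large per read. The difference was not tested.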

How the results depend on the processing

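No paired analysis was possible because the labels give cells, not replicates that share a number across genotypes. Of 133 member differences between genotypes under other settings 121 kept their direction, and of 133 between CM-like and other control cells 111 did. Settings that changed only the filter on low values could not change a difference. Nor could 6 marker clusters, which gave the same CM-like cells, so part of this agreement was fixed in advance. The count of members higher in cKO CM-like cells changed from 0 to 1 with a pseudocount of 0.1, in batch 1 alone, in batch 2 alone and with all cells of each genotype, and to 2 with 4 marker clusters. The count lower changed from 0 to 1 with a pseudocount of 0.1, without mitochondrial transcripts, with centred differences, with clusters of the most variable genes and with all cells, and to 3 in batch 2 alone. Between control CM-like and other cells the count higher changed from 1 to 2 with a pseudocount of 0.1 and with variable-gene clusters, to 3 in batch 2 alone, and to 0 with a pseudocount of 10 and with 4 marker clusters. The count lower changed from 0 to 4 with 4 marker clusters and to 2 without the unnamed cluster, a setting chosen after seeing the data. The median difference there changed from 0.26 to −0.092 in cells with at least 6000 detected genes, −0.48 with 4 marker clusters, 0.74 in batch 2 alone and −0.27 without the unnamed cluster. The cause was not tested.

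Counts over all genes moved too. The shares higher and lower between genotypes were 5.78% and 7.06%, but 9.82% and 13.3% with a pseudocount of 0.1, 1.73% and 1.7% with a pseudocount of 10, 14.5% and 4.69% when mean TPM were compared as a log2 ratio, 11.9% and 2.28% with 4 marker clusters, 11.6% and 4.46% in batch 1 alone, and 5.42% and 21.8% in batch 2 alone. Between control classes they were 9.83% and 6.81%, but 17.6% and 11.5% with a pseudocount of 0.1, 3.55% and 1.98% with a pseudocount of 10, 8.64% and 15.1% by the ratio, 2.98% and 24.8% with 4 marker clusters, 17.7% and 4.06% with variable-gene clusters, 19% and 7.44% in batch 2 alone, and 6.28% and 13.6% without the unnamed cluster. The ratio moved the median of all genes from 0.03 to 0.18 between genotypes and from −0.03 to −0.16 between classes. The filter on low values moved the shares as well. Among genes detected in the majority of cells of either group they were 10.9% and 13.8% between genotypes, and 18.4% and 10% between classes. Without any filter they were 2.15% and 2.63% between genotypes, and 3.54% and 2.45% between classes. The 8 control CM-like cells of batch 2, the unknown depth and the sex difference limit every comparison of genotypes.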
